A study of Saccharomyces cerevisiae with 10 samples.

Results

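The genes described here are those for the proteins of the cytosolic ribosome of budding yeast, Saccharomyces cerevisiae. They were taken by name from the deposited table: mRNA features whose R64 standard name is RPL or RPS followed by a digit, or RPP0, RPP1A, RPP1B, RPP2A or RPP2B. This gave 137 genes of 6596 mRNA features and 7032 features in all, 81 for the large subunit and 56 for the small. They encode 78 proteins; 118 of the genes form 59 pairs of an A and a B copy, and 19 have no such copy.

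The study compared naive cells, which lack the prion, with cells that carry [BIG+], a heritable state passed on through protein and not through a change in DNA. All cells were wild-type BY4741, and 5 cultures of each state were grown from independent colonies. Starters of 5 mL were moved to 700 mL of YPD, a rich medium, and grown at 30 °C to an OD of 1.0. Total RNA was depleted of rRNA and sequenced. The libraries of each state carry a single strain name in the labels, so a difference between 2 strain isolates and a difference between prion states cannot be told apart. Values are TPM, a transcript abundance that divides reads by gene length and scales each library to a fixed sum. Depth is therefore unknown, and a level is a share of the RNA sequenced: fewer cells of a kind and less RNA per cell cannot be told apart.

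A ribosome holds its proteins in nearly equal numbers, and growing yeast spends a large part of its transcription on them. Their promoters are known for binding of Rap1, Fhl1, Ifh1 and Sfp1, through which nutrient signals act on most of these genes together. Most were doubled in an ancient duplication of the whole genome, and the A and B copies of most pairs encode the same or nearly the same protein. Many carry an intron, which few other yeast genes have; in the R64 annotation 89 of the 137 did and 48 did not.

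The strain markers matched BY4741 in part. URA3, LEU2 and MET17, which BY4741 lacks, were listed at 0 in all libraries. HIS3 ranged from 18.4 to 55.0 TPM over the 10 libraries; its allele in this strain lacks only an inner stretch, so a gene-level value checks nothing. STE2, the receptor of mating type a, was at 285.5 ± 55.5 TPM (SD, n = 5) in naive and 305.8 ± 33.3 TPM in [BIG+] cells, and STE3, that of the other mating type, at 0.970 ± 0.301 and 1.20 ± 0.23 TPM. The a-factor genes MFA1 and MFA2 were listed at 0, as were all mRNAs of so short a coding sequence. The library of [BIG+] replicate 5 stood apart: rRNA took 17.4% of its TPM and 0.609% to 1.69% in the other 9, and snoRNA took 14.5% against 25.9% to 34.7%. The median log2 fold change and the number of copy pairs under 0.05 in the exact test are also given without it. Values of single genes include it unless stated.

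Of the 137 genes, 134 had values and passed the filter of a mean of at least 1 TPM. RPL39, which lines the exit tunnel, and RPL41A and RPL41B, which encode the shortest ribosomal protein, were listed at 0 in all 10 libraries. Their coding sequences have 156, 78 and 78 bases, and all 79 mRNAs in the table with a coding sequence shorter than 160 bases were at 0. Of the 40 mRNAs with at least 170 and fewer than 200 coding bases, 2 were at 0, and none of the 5 ribosomal protein genes among them was. These 3 genes are therefore given no value here.

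The ribosomal protein genes dominated the mRNA. Of the 106 mRNAs with a mean of at least 1000 TPM, 59 were ribosomal protein genes, and 128 of the 134 had at least 100 TPM. In naive replicates 1 to 5 their sum was 182696, 195225, 139273, 151590 and 144091 TPM. In [BIG+] replicates 1 to 5 it was 182457, 160931, 153973, 154718 and 176850 TPM. The [BIG+] values all lay within the naive range. As a share of mRNA TPM the genes took 38.7%, 41.0%, 32.5%, 32.8% and 27.2% in naive cells and 38.3%, 34.8%, 33.9%, 35.6% and 33.0% in [BIG+] cells. The mean share was 34.4% ± 5.47 (SD, n = 5) and 35.1% ± 2.03, a difference far smaller than the spread between cultures. TPM is relative to all RNA in a library, and snoRNA, lower in [BIG+] in 5 of 5 pairs, took 31.3% ± 3.16 and 25.1% ± 6.10; its part in these levels was not tested.

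**Figure D1:**
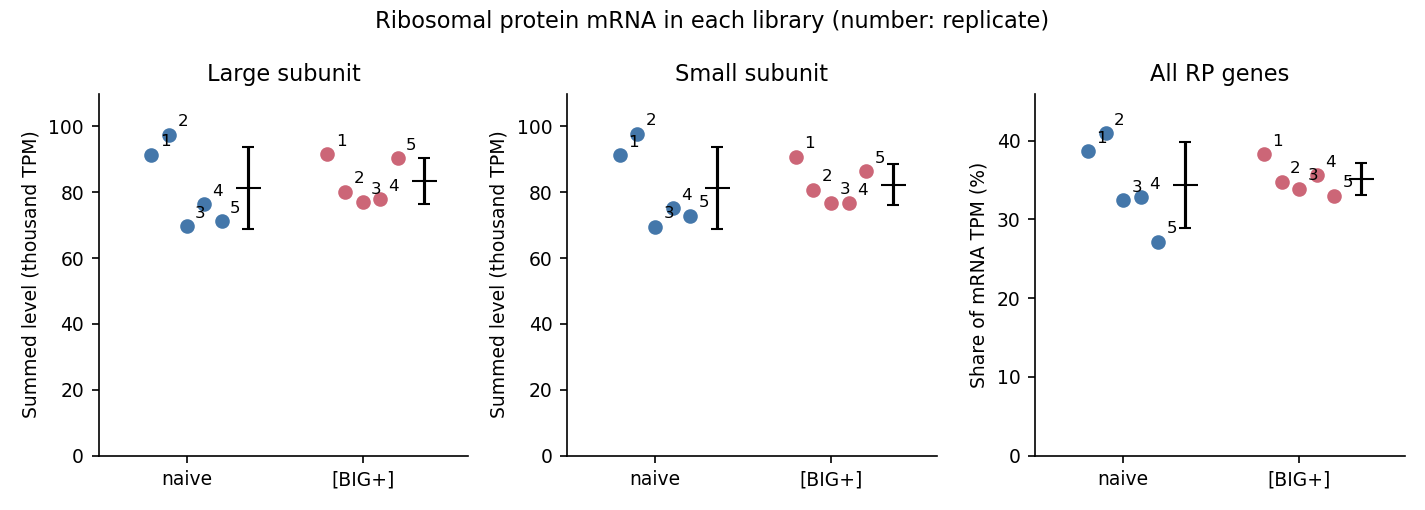
Summed TPM of the large subunit genes (left) and small subunit genes (middle), in units of 1000 TPM, and the share of mRNA TPM taken by all ribosomal protein genes in percent (right), for 5 naive and 5 [BIG+] libraries. Numbers are replicates and bars are mean ± SD. Both subunits follow nearly the same order of libraries, and the [BIG+] sums lie within the naive range on the left and in the middle.

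The summed TPM of large and small subunit genes kept a nearly constant ratio over the libraries. The large subunit sum lacks RPL39, RPL41A and RPL41B, which were listed at 0, and no small subunit gene was. It covers 44 proteins and the small subunit sum 32, so a ratio near 1 is not a balance per protein. The large subunit genes summed to 81257 ± 12475 TPM in naive and 83455 ± 7009 TPM in [BIG+] cultures, and the small subunit genes to 81318 ± 12428 and 82331 ± 6174 TPM. The ratio of large to small was 1.00, 0.997, 1.00, 1.02 and 0.978 in naive replicates 1 to 5, and 1.01, 0.993, 1.00, 1.02 and 1.05 in [BIG+] replicates 1 to 5. While the sums varied between libraries from 139273 to 195225 TPM, this ratio kept between 0.978 and 1.05, and its highest value was that of [BIG+] replicate 5. The ratio of genes with an intron to genes without was 1.66 ± 0.0958 and 1.65 ± 0.0714.

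Levels differed widely between proteins. With both copies summed, the median over 76 proteins was 1756 TPM, 1710 TPM for 44 large subunit and 1879 TPM for 32 small subunit proteins. Lowest was RPP0, the scaffold of the stalk that recruits translation factors, at 242 TPM, and highest RPS28, which sits near the mRNA exit, at 9974 TPM. The 9 proteins with a coding sequence under 300 bases had a median of 4388 TPM and the other 67 one of 1682 TPM. Across the 76 proteins the Spearman correlation of level and coding length was -0.66, a description over genes that share libraries and length scaling. TPM is already divided by length.

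Among single genes the most abundant were RPS28A at 9543 ± 612 TPM in naive and 9623 ± 668 TPM in [BIG+] cultures, RPS27B at 7493 ± 2276 and 7023 ± 1523 TPM, and RPL29 at 5915 ± 617 and 5737 ± 253 TPM. RPS14A, which takes part in the platform of the small subunit, was at 5427 ± 163 and 5394 ± 382 TPM. RPL2B, close to the site where peptide bonds form, was at 2627 ± 242 and 2911 ± 276 TPM, and RPL37B at 2460 ± 141 and 2490 ± 176 TPM. Each of these 6 genes had overlapping values in the 2 states. The scarcest with a value were RPL15B, RPL7B, RPL22B, RPS9A, RPL18B and RPS7B, the only 6 under 100 TPM, and each is the weaker copy of its pair.

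No ribosomal protein gene was called different between the states. limma on log2(TPM + 1), over 5732 features with Benjamini-Hochberg adjustment at 0.05, called 0 of 134 higher and 0 of 134 lower. In that fit it called 0% of all features higher and 0% lower. At an unadjusted p under 0.05 it counted 0 of the 134 in either direction, against 0.244% of all features higher and 1.43% lower. The lowest adjusted p among the 134 was 0.999. A fit with the replicate number as a block, which pairs same-numbered cultures, also called 0 of 134 either way, while it called 0.0349% of all features higher and 0.576% lower. Its lowest adjusted p was 0.322. The labels do not state such a pairing. Unadjusted, that paired fit counted 3 genes higher, RPS1A, RPS1B and RPS6A, and 0 lower, where it counted 1.87% of all features higher and 9.47% lower.

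These fits bound the size of a change for most of the genes. Without the block, the 95% interval of the fold change lay within 1.5-fold either way for 101 of 134 genes and within 2-fold for 130. With the replicate block it lay within 1.5-fold for 127 and within 2-fold for 133.

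By direction alone, 102 of the 134 genes had a log2 fold change above 0, with a median of 0.062. Of all 5732 features 33.7% were above 0. Among the 5662 mRNAs tested 1908 were, with a median of -0.057, and among the 444 mRNAs of at least 100 TPM that are not ribosomal protein genes 244 were, with a median of 0.018. Large and small subunit genes were alike: 59 of 78 were above 0 with a median of 0.064, and 43 of 56 with a median of 0.059. With median-of-ratios scaling in place of TPM the count was 116 of 134 and the median 0.13, while 2841 of 5662 mRNAs were above 0. Measured against 0, the direction rested on single libraries. Matching values for all mRNAs are not given for the fits that follow, so these do not show the position relative to other mRNAs. Without naive replicate 3 the median was -0.0050 with 65 of 134 above 0, without naive replicate 5 it was 0.014 with 71, without [BIG+] replicate 1 it was 0.017 with 74, and without [BIG+] replicate 5 it was 0.025 with 72. Leaving out naive replicate 1 gave 0.108 and naive replicate 2 gave 0.142, each with 117 above 0. Leaving out 1 library keeps its same-numbered partner, which tended to deviate with it. Without both libraries of replicate 5, the median in the paired fit was also negative, as given in the last section.

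**Figure D2:**
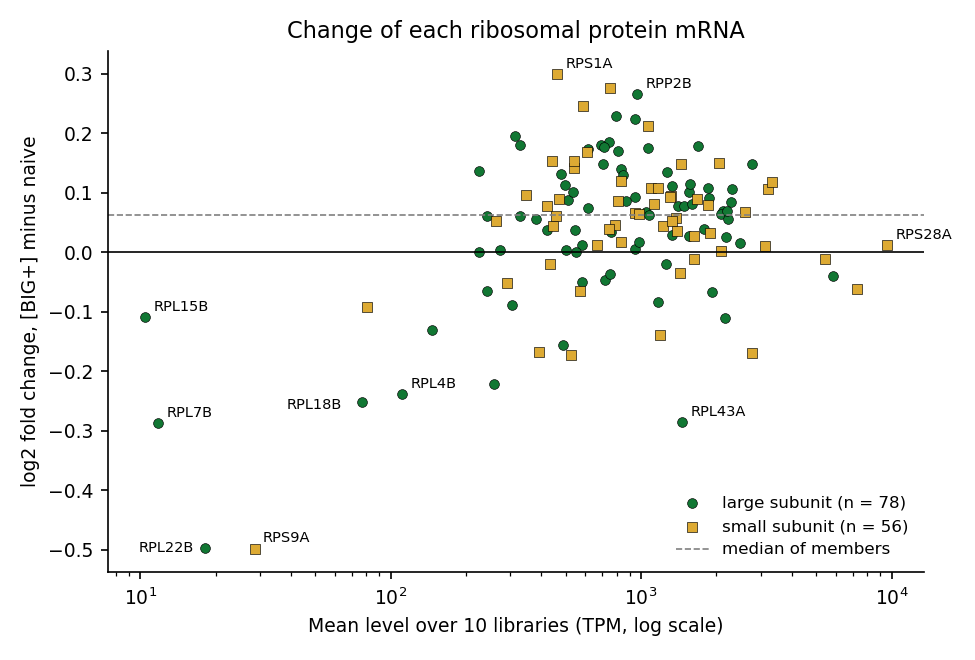
The log2 fold change ([BIG+] minus naive, from limma) of 134 ribosomal protein genes against their mean level in TPM over 10 libraries, on a log axis. Circles are large and squares small subunit genes; the dashed line is their median. Most genes lie between -0.2 and 0.3, RPL22B and RPS9A at the lower left lie near -0.50, and none passed the test.

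The same genes moved together between cultures that share a number, in a direction that changed from number to number. In replicates 1 to 5 the median log2 difference of the 134 genes, [BIG+] minus naive, was -0.0013, -0.33, 0.21, 0.031 and 0.38. In replicate 2, 12 of 134 were higher in [BIG+], and in replicate 5, 129 of 134 were. The large and small subunit medians were -0.33 and -0.33 in replicate 2, and 0.36 and 0.38 in replicate 5. All tested mRNAs had medians of -0.050, 0.073, 0.048, -0.18 and -0.17 in the same 5 pairs. Higher in [BIG+] in all 5 pairs were 3 of the 134, RPL2B, RPL8B and RPS1A, and 1.97% of all features. Of the 134, 0 were lower in all 5 pairs, and 10.3% of all features were. None had states that did not overlap, where 0.384% of all features did.

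**Figure D3:**
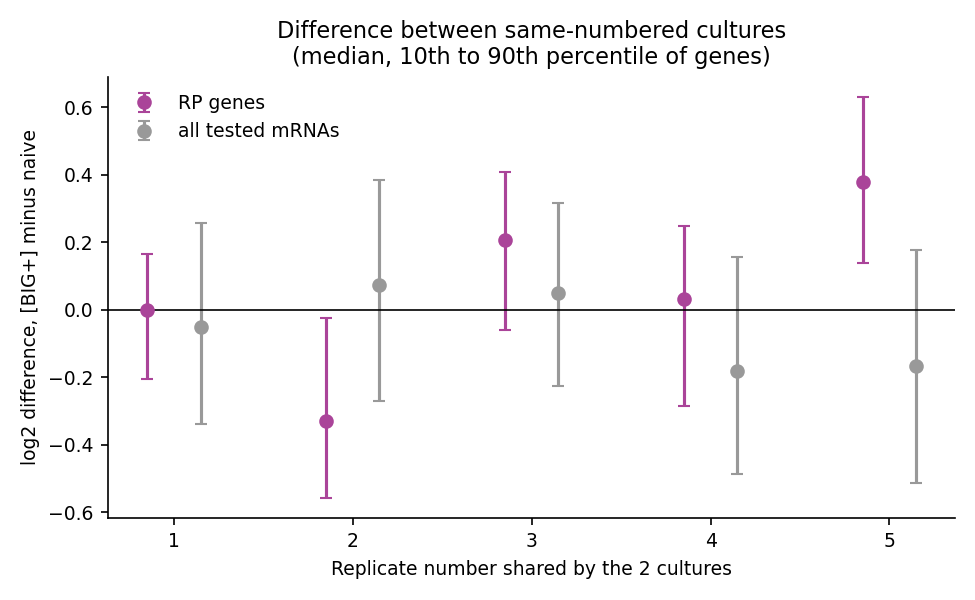
Median log2 difference between the [BIG+] and the naive culture of the same replicate number, for 134 ribosomal protein genes and for 5662 tested mRNAs; bars run from the 10th to the 90th percentile of genes. Ribosomal protein genes lie mostly below 0 in replicate 2 and above 0 in replicates 3 and 5.

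RPS1A and RPS1B, the copies of a small subunit protein near the mRNA exit, had the largest positive differences. RPS1A (XII, 1018141 to 1018908, minus strand, no intron) was at 378, 422, 367, 434 and 465 TPM in naive replicates 1 to 5 and at 471, 443, 537, 520 and 573 TPM in [BIG+] replicates 1 to 5. Each [BIG+] value was above the naive value of the same number, but the lowest [BIG+] value lay below the highest naive value. The log2 fold change was 0.30 ± 0.15 (SE), with an adjusted p of 0.999 in limma and 0.322 with the replicate block. RPS1B was at 647, 764, 589, 696 and 688 TPM and at 751, 725, 857, 836 and 933 TPM. It differed by 0.28 ± 0.14 (limma adjusted p 0.999, 0.403 with the block), and was higher in 4 of 5 pairs. The balance of the copies hardly moved: log2 of RPS1A over RPS1B was -0.71 ± 0.11 and -0.69 ± 0.018 (SD, n = 5).

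Behind these came RPP2B, a stalk protein, at 0.27, RPS6A, a small subunit protein known for its phosphorylation, at 0.25, RPL9A at 0.23 and RPL35A, at the exit of the tunnel, at 0.22 on the log2 scale, each higher in 4 of 5 pairs. RPS6A was at 521, 584, 454, 534 and 587 TPM in naive and at 604, 582, 629, 595 and 772 TPM in [BIG+] cultures. Its states overlapped, and the highest value was that of [BIG+] replicate 5. All 4 had an adjusted p of 0.999 in limma, and 0.42 to 0.498 with the block.

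The most negative differences belonged largely to scarce copies that varied many-fold between cultures of a single state. RPS9A, the weak copy of a protein at the mRNA entry, was at 65.5, 70.7, 9.81, 16.1 and 15.7 TPM in naive and at 52.1, 19.4, 10.9, 13.3 and 13.3 TPM in [BIG+] cultures. RPL22B, whose intron is known for control of its splicing by the Rpl22 protein, was at 41.2, 42.0, 7.98, 10.6 and 10.4 TPM and at 31.3, 12.3, 10.1, 9.39 and 6.84 TPM. In both genes naive replicates 1 and 2 and [BIG+] replicate 1 stood above the other 7 libraries, and the states overlapped. The log2 fold changes were -0.50 ± 0.54 and -0.50 ± 0.48 (SE), with adjusted p of 0.999 in limma and of 0.458 and 0.453 with the block.

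RPL7B and RPL18B had the same high libraries. RPL7B was at 28.7, 26.6, 3.91, 7.33 and 4.63 TPM in naive and at 18.9, 10.8, 4.37, 7.82 and 5.27 TPM in [BIG+] cultures, and RPL18B at 164, 146, 37.3, 52.0 and 35.02 and at 136, 76.0, 35.5, 42.3 and 43.3 TPM. Their log2 fold changes, -0.29 ± 0.51 and -0.25 ± 0.47, turned positive without naive replicate 1 or naive replicate 2: RPL7B was then at 0.059 or 0.034 and RPL18B at 0.054 or 0.011. RPL4B, which lines the exit tunnel, differed by -0.24 ± 0.32 with 184, 163, 74.6, 111 and 71.3 TPM against 154, 119, 55.2, 68.2 and 112 TPM. RPL43A differed by -0.29 ± 0.24: it was at 1350, 1447, 1297, 1758 and 1974 TPM and at 1039, 1054, 1145, 1041 and 2502 TPM. In 4 [BIG+] libraries RPL43A lay below all naive values, and in [BIG+] replicate 5 above all of them.

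Variation within a state was larger in the weaker copy of a pair than in the stronger in 46 of 58 pairs. The median SD of log2 TPM within a state was 0.34 for weaker and 0.24 for stronger copies. The most variable of the 134 genes were RPL7B at 1.14, RPS9A at 1.12, RPL22B at 1.02 and RPL18B at 0.948, against a median of 0.27. Next came 2 genes that were not scarce, RPL33B at 0.805 with a mean of 717 TPM and RPL27B at 0.709 with 550 TPM. In 43 of 58 pairs the mean log2 level of replicates 1 and 2 minus that of 3 to 5 was larger in the weaker copy. Low counts add spread to scarce genes. The part of low counts or of replicate number in these values was not tested.

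Rap1 is a DNA-binding protein that marks many of these promoters, and its letters were searched in them. ACCCNNACA, on either strand, was found within 500 bases before the start codon in 54 of 137 genes, or 39.4%, and in 5.48% of all 5893 promoters searched. Of 62 matches, 54 began 150 to 450 bases before the start codon. GACGC, the Fhl1 letters, was in 43.1% and 30.1%, the stress element AGGGG in 27.0% and 34.4%, GATGAG of the PAC motif in 21.9% and 27.9%, and AAAATTTT of the RRPE motif in 12.4% and 12.6%. Of the tested genes with the Rap1 letters 46 of 53 had a log2 fold change above 0, with a median of 0.084, and of those without 56 of 81, with a median of 0.044; the difference between these groups was not tested.

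The copies of a pair can differ in these letters. The windows of 100 bases below are shown for RPS1 and RPL43, named above, and for RPL9, described with the pairs. Each begins 300 bases before the start codon, or 350 for RPL9, and is read 5′ to 3′ on the gene's strand from the R64 RefSeq assembly, with Rap1 letters in capitals; RPL9A has them on the opposite strand.
RPS1A (chrXII:1019109-1019208, minus): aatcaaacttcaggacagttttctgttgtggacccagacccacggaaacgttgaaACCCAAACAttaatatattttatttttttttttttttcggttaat
RPS1B (chrXIII:146182-146281, plus): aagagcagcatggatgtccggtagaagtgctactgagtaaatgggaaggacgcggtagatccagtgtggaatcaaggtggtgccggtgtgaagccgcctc
RPL9A (chrVII:228580-228679, minus): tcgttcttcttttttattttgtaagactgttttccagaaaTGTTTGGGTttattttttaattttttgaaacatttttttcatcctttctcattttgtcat
RPL9B (chrXIV:499331-499430, plus): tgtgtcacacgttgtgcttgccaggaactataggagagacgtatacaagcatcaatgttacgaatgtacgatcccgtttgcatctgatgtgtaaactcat
RPL43A (chrXVI:653866-653965, plus): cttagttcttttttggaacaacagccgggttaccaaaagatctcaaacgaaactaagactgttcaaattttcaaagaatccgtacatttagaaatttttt
RPL43B (chrX:608005-608104, plus): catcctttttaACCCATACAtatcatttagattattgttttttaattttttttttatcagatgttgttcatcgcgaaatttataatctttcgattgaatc
RPS1A, RPL9A and RPL43B had the letters, beginning 245, 310 and 289 bases before the start codon, and RPS1B, RPL9B and RPL43A had none in 500 bases. RPS1A and RPS1B had log2 fold changes of 0.30 and 0.28. A match here is a description of letters, not of binding, and its part in the levels was not tested.

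Of the 59 pairs, 58 had values. Most were unequal: the stronger copy exceeded the weaker by less than 1.5-fold in 15 pairs, by 1.5-fold to 3-fold in 19 and by at least 3-fold in 24, with a median of 2.53-fold. The A copy was the stronger in 37, and the same copy was the stronger in all 10 libraries in 53. The most unequal were RPL15 (76.7-fold, A over B), RPL7 (73.8-fold, A over B) and RPL22 (64.3-fold, A over B). RPL15A was at 779 ± 357 TPM in naive and 833 ± 268 TPM in [BIG+] cultures, and RPL15B at 10.8 ± 2.24 and 10.2 ± 3.26 TPM. The most equal were RPL43 (1.01-fold), RPS6 (1.04-fold) and RPS30 (1.13-fold).

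How well reads can be told apart differs from pair to pair. Coding sequences of copies were 68.2% to 99.4% identical, with a median of 93.2%, and 21 pairs encode identical proteins. Protein identity was lowest in RPP1 at 56.5% and RPP2 at 62.2%, and was at least 84.6% in the other pairs. In 11 pairs over 30% of the 50-base words of the A copy were also in the B copy, and in 19 pairs none were. How the authors treated reads that fit both copies is not given in the sources used here, so values of near-identical copies are uncertain. Stretches of 90 coding bases show the range, with bases that differ in capitals.
RPL35A, coding bases 91 to 180 (chrIV:118245-118334, plus): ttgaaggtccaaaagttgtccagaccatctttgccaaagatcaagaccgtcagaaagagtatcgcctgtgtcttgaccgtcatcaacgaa
RPL35B, coding bases 91 to 180 (chrIV:218095-218184, plus): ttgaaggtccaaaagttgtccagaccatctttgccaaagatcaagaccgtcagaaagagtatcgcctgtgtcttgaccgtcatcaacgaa
RPL9A, coding bases 1 to 90 (chrVII:228240-228329, minus): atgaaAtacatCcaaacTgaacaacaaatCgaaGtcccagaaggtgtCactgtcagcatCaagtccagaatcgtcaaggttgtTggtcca
RPL9B, coding bases 1 to 90 (chrXIV:499681-499770, plus): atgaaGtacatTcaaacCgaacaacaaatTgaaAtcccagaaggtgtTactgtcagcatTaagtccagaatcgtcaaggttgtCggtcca
RPL43A, coding bases 91 to 180 (chrXVI:654659-654748, plus): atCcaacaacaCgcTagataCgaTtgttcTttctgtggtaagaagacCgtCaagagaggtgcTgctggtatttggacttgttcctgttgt
RPL43B, coding bases 91 to 180 (chrX:608670-608759, plus): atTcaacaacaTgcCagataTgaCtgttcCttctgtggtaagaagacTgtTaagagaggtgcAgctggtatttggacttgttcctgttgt
The RPL35 copies are the same throughout their stretch, while the RPL9 and RPL43 copies differ at 8 and 9 of 90 bases.

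How many pairs differed in the balance of A and B copies depended on whether same-numbered cultures were paired. The median absolute change of log2 A over B was 0.076, and 8 of 58 pairs differed by more than 0.25 in mean. Both copies had a positive mean difference in 34 pairs, both a negative one in 6, and the copies had opposite signs in 18. A two-sided exact permutation test over all assignments of the libraries, unadjusted, gave p under 0.05 in 1 of 58 pairs, RPL9, where 2.9 would be reached if none changed. That test does not use the shared replicate numbers. limma on the log ratios with the replicate block, also unadjusted, gave p under 0.05 in 8 of 58 pairs, beside the same 2.9. RPL9, RPL14 and RPL18 had a higher ratio of A over B in [BIG+], and RPL2, RPL6, RPL43, RPP2 and RPS9 a lower one. Without the block, limma gave 2, RPL9 and RPP2. The ratio moved in a single direction in all 5 same-numbered pairs in 10 of the 58, upward in RPL9, RPL14, RPL18, RPL27 and RPS23 and downward in RPL6, RPL34, RPL43, RPP2 and RPS9. None of these p-values was adjusted for the 58 pairs. For levels of single features, the blocked fit had an unadjusted p under 0.05 for 1.87% of all features higher and 9.47% lower. The 58 ratios share the same 10 libraries, so 2.9 does not show how far such a count can vary.

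RPL9 encodes a large subunit protein near the base of the stalk. Its log2 ratio of A over B was 1.71, 1.72, 1.67, 1.80 and 1.57 in naive replicates 1 to 5 and 1.92, 1.83, 2.12, 1.94 and 1.82 in [BIG+] replicates 1 to 5. The states did not overlap, which singled the pair out after its values were seen. The mean was 1.70 ± 0.083 and 1.92 ± 0.12 (SD, n = 5), a change of 0.23 ± 0.065 (SE, paired fit) with an exact permutation p of 0.00794, the smallest this design allows. RPL9A was at 759, 882, 588, 695 and 734 TPM in naive and 855, 780, 851, 828 and 947 TPM in [BIG+] cultures, and RPL9B at 230, 268, 183.9, 198.6 and 245.8 and at 225, 219, 195, 215 and 268 TPM. RPL9A was higher in 4 of 5 pairs, whereas RPL9B had a log2 fold change of 0.0011 ± 0.16 (SE). Without [BIG+] replicate 5, RPL2 and RPP2 also reached p under 0.05 in the exact test, making 3 pairs.

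**Figure D4:**
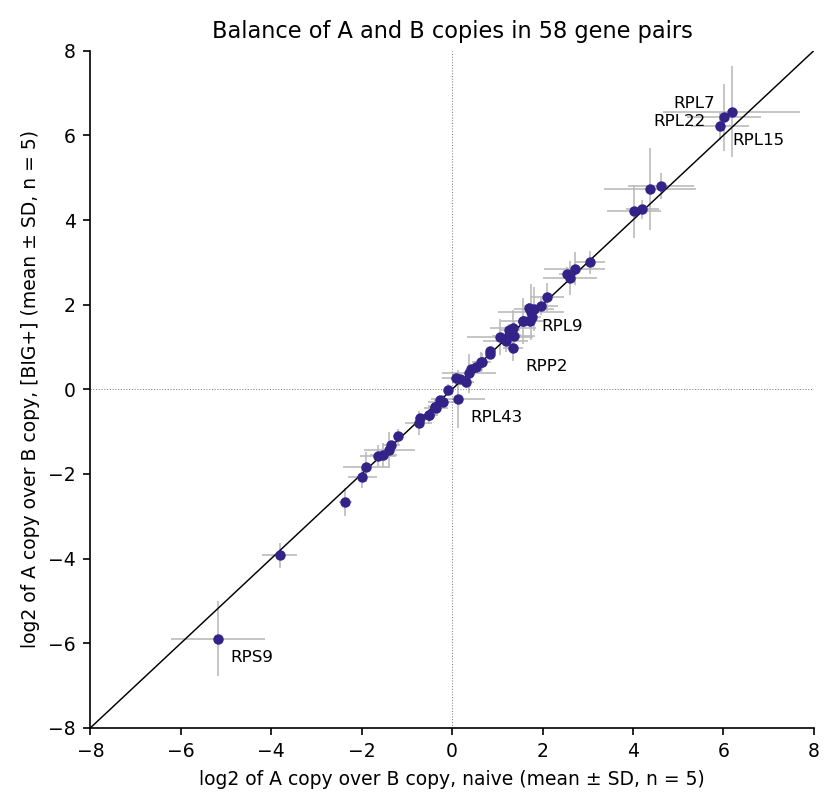
Log2 of the A copy over the B copy in [BIG+] against naive libraries for 58 gene pairs, mean ± SD of 5 libraries on each axis; the line marks equal balance. The pairs lie along the line over a range from RPS9 at the lower left to RPL7, RPL15 and RPL22 at the upper right, and RPL9 lies 0.23 above it.

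Among the other pairs, spread between cultures was often larger than the change. The log2 ratio of RPS9A over RPS9B was -5.18 ± 1.04 in naive and -5.89 ± 0.88 in [BIG+] cells, a change of -0.71 ± 0.17 (SE, paired fit). The exact permutation p was 0.23, from a test that does not pair cultures as that SE does. RPL22 differed by 0.41 (exact p 0.492) and RPL7 by 0.37 (exact p 0.659). For RPL43 the ratio was -0.484, -0.381, 0.085, 0.461 and 0.968 in naive and -0.896, -0.612, -0.125, -0.406 and 0.875 in [BIG+] replicates 1 to 5. It was lower in all 5 pairs by a mean of 0.36 while its values in each state spanned both signs, with an exact p of 0.381. RPL14, a large subunit protein, had log2 ratios of 2.52, 2.45, 2.73, 2.72 and 2.31 in naive and 2.61, 2.65, 2.91, 2.90 and 2.56 in [BIG+] replicates 1 to 5. The change was 0.18 ± 0.051 (SE, paired fit), with overlapping states and an exact p of 0.143.

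**Figure D5:**
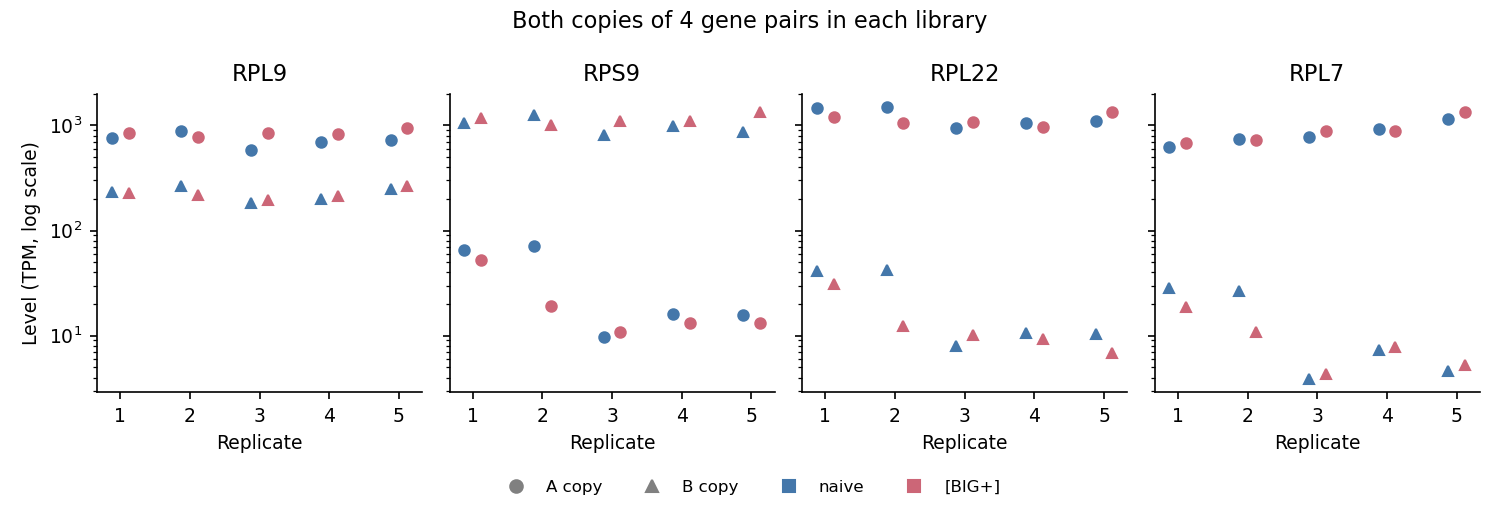
Level in TPM, on a log axis, of the A copy (circles) and B copy (triangles) of RPL9, RPS9, RPL22 and RPL7 in each replicate of naive and [BIG+] cells. The weak copies RPS9A, RPL22B and RPL7B are highest in naive replicates 1 and 2 and [BIG+] replicate 1, while the strong copies vary less.

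The stalk proteins showed the range of behaviours in a single structure. Of its 7 genes, RPP0, the 4 genes of the acidic P1 and P2 proteins that bind it, and RPL12A and RPL12B at its base, 4 had a log2 fold change above 0, and the median was 0.0034. RPP0 was at 302, 228, 213, 268 and 224 TPM in naive and 284, 240, 194, 209 and 255 TPM in [BIG+] cultures. The states overlapped. RPP1A stood at 1563 ± 211 and 1643 ± 127 TPM, RPP1B at 531 ± 119 and 558 ± 211 TPM, RPP2A at 2243 ± 375 and 2102 ± 521 TPM, and RPP2B at 881 ± 149 and 1050 ± 88.6 TPM. The log2 ratio of RPP2A over RPP2B was 1.18, 1.17, 1.30, 1.38 and 1.72 in naive and 0.623, 0.814, 1.15, 0.884 and 1.39 in [BIG+] replicates 1 to 5. It was lower in [BIG+] in 5 of 5 pairs by a mean of 0.38 ± 0.072 (SE, paired fit), the states overlapped, and the exact permutation p was 0.0635. P1 and P2 mRNA each came to several times the level of RPP0: the sum of RPP1A and RPP1B was 2093 ± 154 and 2201 ± 156 TPM, and that of RPP2A and RPP2B 3123 ± 486 and 3152 ± 567 TPM. RPP0 has 939 coding bases, and RPP1A and RPP2A have 321 each. Level was lower in longer genes over all the proteins, and the part of length in this gap was not tested.

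Other roles differed little. The ubiquitin fusions RPL40A, RPL40B and RPS31, whose products are cut into ubiquitin and a ribosomal protein, were all above 0 in log2 fold change, at 0.070, 0.18 and 0.12, with limma adjusted p of 0.999. RPS31 ranged from 1702 to 5132 TPM within naive cells alone. All 3 genes for proteins of the 5S ribonucleoprotein, RPL5, RPL11A and RPL11B, were above 0, with a median of 0.063. Of 13 tested genes at the exit tunnel 10 were, with a median of 0.038, of 4 around the peptidyl transferase centre 3 were, with 0.0995, and of 14 along the decoding site and mRNA channel 10 were, with 0.028. None of these was called. Of the 3 genes with a snoRNA in an intron, RPL7A, RPL7B and RPS22B, 2 were above 0. RPS22B was at 395, 398, 179, 207 and 151 TPM in naive and 363, 254, 213, 242 and 224 TPM in [BIG+] cultures. The cytosolic genes were close to the mitochondrial ribosomal protein genes in direction, of which 51 of 73 were above 0 with a median of 0.074.

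Genes that act on ribosomal protein genes or their products were also without a call. Of 22 regulators of ribosomal protein transcription 0 were called higher or lower in either fit, 3 were above 0, and the median was -0.136, beside -0.057 for all tested mRNAs. With the replicate block, 6 reached an unadjusted p under 0.05, all lower in [BIG+], where 9.47% of all features did: DOT6, SCH9, ABF1, HMO1, FHL1 and SFP1. Lower in all 5 same-numbered pairs were 9 of the 22 regulators and 10.3% of all features, a description that was not tested. DOT6, a repressor of ribosome assembly genes, was at 21.2, 11.9, 7.14, 7.50 and 10.3 TPM in naive and 13.2, 9.37, 6.14, 4.66 and 7.54 TPM in [BIG+] cultures. It was lower in 5 of 5 pairs by 0.43 on the log2 scale, while the states overlapped. Its SE was 0.29 without the block and 0.097 with it. Its adjusted p was 0.999 in limma and 0.121 with the block. SCH9, a kinase that carries TOR signals, differed by -0.37 ± 0.23 (SE without the block) and ABF1 by -0.33 ± 0.22. HMO1, which binds many ribosomal protein promoters, differed by -0.28 ± 0.21. With the block the SEs of SCH9, ABF1 and HMO1 were 0.098, 0.097 and 0.102. FHL1 and SFP1, at 1.48 ± 0.233 and 4.11 ± 1.05 TPM in naive cells, differed by -0.20 ± 0.13 and -0.18 ± 0.19. Their SEs with the block were 0.086 and 0.080. In [BIG+] cells they were at 1.16 ± 0.293 and 3.51 ± 1.00 TPM. At such low levels the 1 added to TPM before the log shrinks a difference, so these are not on the scale of HMO1. The most positive was CKB2, a subunit of casein kinase, at 0.086 ± 0.19.

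Dedicated chaperones of ribosomal proteins, 13 tested, had 8 above 0 and 0 called, from FAP7 at -0.105 ± 0.20 to LOC1 at 0.21 ± 0.25. Enzymes that modify ribosomal proteins, 13 tested, also had 8 above 0 and 0 called, from the lysine methyltransferase RKM2 at -0.13 ± 0.19 to the histidine methyltransferase HPM1 at 0.16 ± 0.18. Of 17 other ribosome-bound factors 14 were above 0 and 0 called, from RIA1 at -0.22 ± 0.20 to SDO1 at 0.23 ± 0.23, which together free the large subunit of TIF6 late in assembly.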

How the data were processed

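Total RNA of 10 cultures was sequenced after rRNA depletion, and the authors deposited 1 table of TPM values. Per the submitters' processing notes, Bowtie2, HTSeq and build R64 were used; the sources used here give no versions, annotation release or strand use, so overlapping and near-identical genes are uncertain. TPM keeps no depth, and no counting interval is given. The table held 7032 features, of which 577 had no value above 0 anywhere, and 4 further emptied lines; 5914 of 6596 mRNA features matched an R64 locus tag.

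Values were tested as log2(TPM + 1), two-sided, with limma 3.58.1 in R 4.3.3 (trend) over 5732 features (mean over all libraries of 1 TPM or more), without a block and at a Benjamini-Hochberg adjusted p of 0.05. The script was tested on simulated data. Ratios of copies were tested by exact permutation over all assignments of libraries, and in limma with the replicate block as an alternative. The exact test is unpaired, so its p does not belong to an SE of the paired fit. Differences are [BIG+] minus naive. The SE of a gene's log2 fold change is from the fit without a block unless stated. Same-numbered libraries deviated together (correlations 0.743, 0.569, 0.531, 0.355 and 0.475), and were treated as pairs in the blocked fit. The labels do not state that cultures of the same number belong together. Correlations between unlike numbers are not given here, so the pairing is an assumption. Promoters were 500 bases upstream of start codons in the R64 RefSeq genome, since no promoter table was used. The members, lists and tests were chosen with earlier results of these data known. Named genes were the 6 most positive and 6 most negative among those of at least 10 TPM, the 3 most and 3 least abundant of each subunit, the P proteins, the ubiquitin fusions, the 5 pairs with the largest ratio change and the 3 most and 3 least equal pairs, and in pathway lists those past the threshold or else the largest change each way; RPL9, RPL2B, RPL8B, the pairs that reached p under 0.05 or moved in a single direction, and the regulators at unadjusted p under 0.05 were named after their values were seen. EFL1 is listed as RIA1, and KAP121 was not matched.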

Additional observations from a re-analysis of the deposited data

Results flagged for a closer look

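Values that stood far from the other 4 libraries of their state were looked for in 96 groups of 5, of which chance gives about 1 in 20. There were 8. RPS9A at 52.1 TPM, RPL22B at 31.3 TPM and RPS22B at 362.5 TPM were high in [BIG+] replicate 1. RPL43A at 2502 TPM, RPS6A at 772 TPM and RPP1B at 934.1 TPM were high in [BIG+] replicate 5, the library with 17.4% rRNA. RPP1A at 1186 TPM was low in naive replicate 5, and RPS6B at 478.7 TPM was low in naive replicate 3.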

How the results depend on the processing

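No ribosomal protein gene was called in either direction under any of the alternatives: the replicate block or a block of cultures 1 and 2, 3 and 4, and 5, pseudocounts of 0.1 and 10, filters of 0, 10 and 100 TPM, median-of-ratios, quantile or mRNA-only scaling, and each library or pair left out. The median log2 fold change was 0.062 with and without the replicate block, 0.131 with median-of-ratios scaling, and -0.0050 to 0.142 over left-out libraries; leaving out pair 5 in the paired fit gave -0.016 with 54 of 134 above 0, and pair 2 gave 0.158. The log2 ratio of summed levels was 0.028, and -0.036 to 0.113 over left-out libraries or pairs. RPL7B and RPL18B turned positive without naive replicate 1 (0.059 and 0.054) or naive replicate 2 (0.034 and 0.011). Over left-out libraries, RPL7B ranged from -0.589 to 0.059 and RPL18B from -0.553 to 0.054. The cause was not tested. The number of pairs of copies with an unadjusted p under 0.05 was 1 in the exact test, 1 to 3 over left-out libraries (3 without [BIG+] replicate 5), and 2 with quantile normalization. It was 2 in limma without a block, a test chosen after seeing the data, 8 with the replicate block, 8 with the block of culture sets, and 5 to 12 in the paired fit with each replicate number left out, with 12 without replicate 5.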
